A study of Mus musculus with 9 samples.

Results

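The SOCS family, Cish and Socs1 to Socs7, was followed in Jak2V617F bone marrow cells with and without a guide against the splicing factor gene Zrsr2. The members were taken by symbol from the table of gene counts. All 8 were found among its 38215 genes, and all 8 passed the filter on low counts that left 14944 genes for testing.

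SOCS proteins are feedback inhibitors of cytokine receptors. A cytokine activates JAK kinases on its receptor, these phosphorylate STAT transcription factors, and STATs switch on SOCS genes whose products then bind the receptor or the kinase and dampen it. Each SOCS protein has an SH2 domain, which binds phosphotyrosine, and a SOCS box, which recruits elongins and a cullin ligase that marks the bound protein for degradation. Cish, Socs1, Socs2 and Socs3 are the members best known as JAK-STAT feedback genes, while Socs4 to Socs7 have been linked more to growth factor and insulin signalling. The V617F change makes Jak2 active without cytokine. Cish, Socs1, Socs2 and Socs3 thus belong to the pathway of the mutation that all the mice carried.

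RNA was sequenced from sorted Lineage- Sca1+ Kit+ (LSK) cells, the marrow fraction with stem cells and multipotent progenitors, of 9 C57BL/6J mice treated with tamoxifen. The cells were positive for GFP and mCherry and were taken at a terminal time point. The EV group (5 mice, numbered 1 to 5) has the genotype Jak2V617F, and the sgZrsr2 group (4 mice, numbered 1, 2, 3 and 5) the genotype Jak2V617F-sgZrsr2. The labels spell out neither EV nor sg, do not say what tamoxifen acts on or what GFP and mCherry mark, and give no age. There was no group without Jak2V617F, so the values say nothing of the effect of the mutation itself. The comparison asked how the cells differed when the guide against Zrsr2 was added to Jak2V617F.

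Libraries held 23238264 to 45585531 expected counts. Levels are CPM, counts scaled to the library size with TMM factors. In bulk RNA, a lower level in each cell and fewer cells that express the gene cannot be told apart. Zrsr2, the gene targeted, averaged 53.4 ± 4.94 CPM over the 5 EV libraries and 38.9 ± 5.30 CPM (SD) over the 4 sgZrsr2 libraries. The groups did not overlap, with sgZrsr2 lower, as in 1.32% of all genes tested. The log2 fold change of Zrsr2 was -0.46 (Benjamini-Hochberg adjusted p 0.714 in edgeR's quasi-likelihood test). EV mouse 3 and sgZrsr2 mouse 3 stood farthest from the rest of their own groups, with a median absolute log2 difference of 0.31 for each over 9630 genes, against 0.12 to 0.25 for the other libraries. The nearest pair was sgZrsr2 mice 1 and 2, with a median coefficient of variation of 2.82% between them. They were also the smallest libraries, at 23238264 and 25857723 expected counts. Genes detected numbered 16188 and 16832 in them, against 18380 to 19429 in the others. Stem and progenitor markers were present in every library (10 of 10 genes above 0 in all 9, summed level 1494 to 2077 CPM with EV and 1702 to 2174 CPM with sgZrsr2).

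STAT dimers bind the palindrome TTCNNNGAA, known as a GAS element, and RefSeq promoter sequences (GRCm38.p6, 250 bases before to 50 after RefSeq's start of the gene) were found for 4 of the 8 members: Cish, Socs1, Socs3 and Socs4. RefSeq's start need not be the outermost start in the count table, whose coordinates are given with each gene: it lay 633 bases inside the table's Cish gene and 681 bases inside its Socs3 gene, 11 bases outside Socs4, and at the same base for Socs1. The motif is its own reverse complement in form, so a search of 1 strand covers both. It was present in 8.30% of 32851 such promoters, and 0.457% held it at least 2 times. Cish (chr9:107296409-107296708, plus strand) and Socs3 (chr11:117969317-117969616, minus strand) are shown because they had the widest spread between mice, and Socs4 (chr14:47276670-47276969, plus strand) because it had the clearest difference between the groups. Each is printed 5′ to 3′ with matches to the motif in capitals.

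Cish: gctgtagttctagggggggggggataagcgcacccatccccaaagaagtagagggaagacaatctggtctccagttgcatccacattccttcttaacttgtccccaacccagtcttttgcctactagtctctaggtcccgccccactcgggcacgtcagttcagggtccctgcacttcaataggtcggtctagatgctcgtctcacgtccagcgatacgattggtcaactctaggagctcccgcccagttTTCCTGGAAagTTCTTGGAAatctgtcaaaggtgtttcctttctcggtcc

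Socs3: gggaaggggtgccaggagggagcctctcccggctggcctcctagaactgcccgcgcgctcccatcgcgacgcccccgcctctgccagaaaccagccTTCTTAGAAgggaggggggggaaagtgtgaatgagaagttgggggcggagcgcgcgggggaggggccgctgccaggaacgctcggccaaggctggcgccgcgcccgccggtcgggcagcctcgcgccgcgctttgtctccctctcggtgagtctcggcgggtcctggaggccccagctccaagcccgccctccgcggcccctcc

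Socs4: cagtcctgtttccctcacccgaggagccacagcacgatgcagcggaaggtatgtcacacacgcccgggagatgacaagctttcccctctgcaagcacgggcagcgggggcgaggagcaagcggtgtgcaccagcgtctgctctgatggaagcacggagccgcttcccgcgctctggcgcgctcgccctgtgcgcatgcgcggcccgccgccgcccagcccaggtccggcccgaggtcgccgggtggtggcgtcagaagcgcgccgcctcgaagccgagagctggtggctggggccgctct

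The Cish window held 2 matches, TTCCTGGAA and TTCTTGGAA, which do not overlap. The Socs3 window held 1, TTCTTAGAA, starting 154 bases before RefSeq's start. The windows of Socs4 and Socs1 held 0. A match describes the letters only, and binding of STAT factors was not measured.

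None of the 8 members passed a Benjamini-Hochberg adjusted p of 0.05 over all genes in edgeR's quasi-likelihood test, as none of the 14944 genes did (0%). At an unadjusted p under 0.05 the members numbered 1 of 8, against 6.85% of all genes tested; this was Socs4, which was higher with sgZrsr2 (3.87% of all genes were higher at that threshold). The groups did not overlap in 1 of 8 members, Socs4 again, against 3.06% of all genes (1.75% with sgZrsr2 higher). The log2 fold change was above 0 in 6 of 8 members, against 48.5% of all genes, and its median was 0.19 against -0.01 over all genes. The plot of levels by mouse shows every member in every library.

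**Figure D1:**
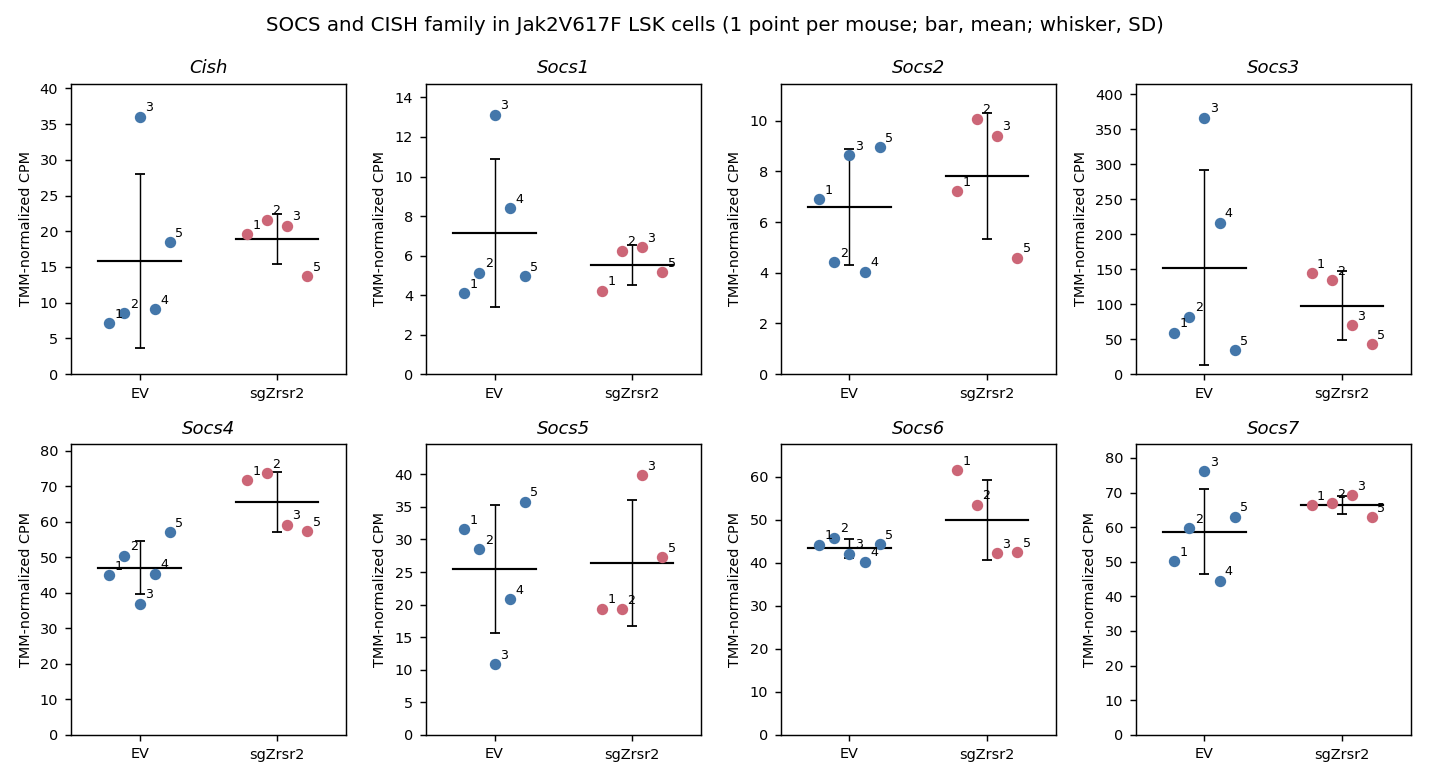
TMM-normalized CPM of the 8 family members (y axis, CPM, each panel with its own scale from 0) in EV and sgZrsr2 libraries. Each point is a mouse with its number, the bar is the group mean and the whisker the SD; the Socs4 groups do not overlap (36.9 to 57.1 against 57.3 to 73.7 CPM), and EV mouse 3 is highest for Cish, Socs1, Socs3 and Socs7.

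Socs4 (ENSMUSG00000048379; chromosome 14, 47276931 to 47296098, plus strand, GRCm38), a member with a long N-terminal region that has been linked to receptor tyrosine kinases, had the clearest difference between the groups. The EV mice 1 to 5 had 45.01, 50.5, 36.9, 45.4 and 57.1 CPM. The sgZrsr2 mice 1, 2, 3 and 5 had 71.6, 73.7, 59.1 and 57.3 CPM. All 4 sgZrsr2 libraries lay above all 5 EV libraries, but EV mouse 5 and sgZrsr2 mouse 5 were nearly equal. The highest values were those of sgZrsr2 mice 1 and 2, the nearest pair of libraries and also the smallest. The group means were 47.0 ± 7.45 (SD, n = 5) and 65.4 ± 8.43 CPM (SD, n = 4), and an exact permutation test (two-sided) gave p = 0.0159, the smallest that 5 against 4 libraries can give. On the log2 scale the fold change was 0.48 (SE 0.14; unadjusted p 0.00569, edgeR adjusted p 0.714). It stayed between 0.40 and 0.56 when any 1 of the 9 libraries was left out (unadjusted p 0.00230 to 0.0225), was 0.42 with sgZrsr2 mice 1 and 2 averaged (unadjusted p 0.0212) and was 0.72 without EV mouse 5 and sgZrsr2 mice 3 and 5, a fit in which only the 2 highest libraries stand for sgZrsr2. The adjusted p did not fall below 0.149 in any of the alternatives.

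Socs5, Socs6 and Socs7 complete the group of longer members. Socs5 (ENSMUSG00000037104; chromosome 17, 87107679 to 87137583, plus strand), the closest relative of Socs4, gave 31.6, 28.5, 10.8, 20.8 and 35.8 CPM with EV and 19.4, 19.3, 39.8 and 27.2 CPM with sgZrsr2, in the same order of mice. Both groups spanned a similar range, with EV mouse 3 lowest and sgZrsr2 mouse 3 highest of all. Its log2 fold change of 0.05 (SE 0.33; edgeR adjusted p 0.972) changed sign when EV mouse 3, EV mouse 4 or sgZrsr2 mouse 3 was left out (-0.14, -0.01 and -0.21). So the close relatives Socs4 and Socs5 did not share an order of libraries: EV mouse 3 was lowest for both, but sgZrsr2 mice 1 and 2 were highest for Socs4 and below 4 of the 5 EV libraries for Socs5.

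Socs6 (ENSMUSG00000056153; chromosome 18, 88665224 to 88927481, minus strand), which binds the receptors Kit and Flt3, was the steadiest member with EV, at 44.2, 45.8, 42.1, 40.2 and 44.3 CPM in mice 1 to 5. In sgZrsr2 mice 1, 2, 3 and 5 it was at 61.5, 53.5, 42.2 and 42.4 CPM, so mice 1 and 2 lay above the EV range and mice 3 and 5 inside it. Its log2 fold change of 0.20 had an SE of 0.13 ( unadjusted p 0.144, edgeR adjusted p 0.732). Without EV mouse 5 and sgZrsr2 mice 3 and 5 it was 0.42 (unadjusted p 0.00949, adjusted p 0.350), a fit in which only mice 1 and 2 stand for sgZrsr2, and without sgZrsr2 mouse 1 it was 0.080. Socs7 (ENSMUSG00000038485; chromosome 11, 97362551 to 97398542, plus strand), linked to insulin receptor substrates, was at 50.1, 59.7, 76.1, 44.5 and 63.1 CPM with EV and at 66.3, 67.0, 69.2 and 62.9 CPM with sgZrsr2. The 4 sgZrsr2 values fell within the EV range and above the EV median, with a log2 fold change of 0.18 (SE 0.15; edgeR adjusted p 0.765). Its coefficient of variation was 20.8% with EV and 3.94% with sgZrsr2.

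Socs3 (ENSMUSG00000053113; chromosome 11, 117966079 to 117970047, minus strand), the inhibitor of receptors that use gp130 and of the G-CSF receptor, varied most. Its levels were 59.1, 82.2, 367, 217 and 34.6 CPM with EV (mice 1 to 5) and 145, 134, 69.9 and 42.7 CPM with sgZrsr2 (mice 1, 2, 3 and 5). EV mice 3 and 4 were the highest of the 9 and EV mouse 5 the lowest, so that the sgZrsr2 range lay inside the EV range. The highest library was 10.6 times the lowest, a larger ratio than in 99.4% of the 9630 genes that averaged 10 CPM or more (median 1.69). Its values rest on 1188 to 11766 counts, so counting error is small beside this spread. The means were 152 ± 139 (SD, n = 5) and 97.8 ± 49.5 CPM (SD, n = 4), with p = 0.556 in the same exact permutation test. The log2 fold change of -0.64 (SE 0.64; edgeR adjusted p 0.807) was -0.02 without EV mouse 3, and so rested on that library.

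Cish (ENSMUSG00000032578; chromosome 9, 107296026 to 107302784, plus strand), a STAT5 target that competes with STAT5 for receptor docking sites, had levels of 7.14, 8.49, 36.04, 9.12 and 18.5 CPM with EV. The sgZrsr2 levels were 19.6, 21.6, 20.7 and 13.7 CPM. The 4 sgZrsr2 values lay above the EV median of 9.12 CPM, yet EV mouse 3 was the highest of all 9 and EV mouse 5 lay among the sgZrsr2 values. The log2 fold change was 0.26 (SE 0.44; edgeR adjusted p 0.891). Without EV mouse 3 it was 0.80 (unadjusted p 0.0239, adjusted p 0.661), and with limma-voom and sample quality weights 1.02 (unadjusted p 0.00449, adjusted p 0.169). Without EV mouse 1, 2 or 4, the 3 lowest libraries, it was 0.071, 0.098 or 0.10. The antisense genes Gm17040 and Gm17041 overlap Cish and the strand setting of the counting is not given in the sources used here; they held at most 2 and 4.07 counts, against 248 to 1156 for Cish.

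Socs1 (ENSMUSG00000038037; chromosome 16, 10783808 to 10785536, minus strand), which inhibits JAK kinases directly and restrains interferon-gamma signalling, was low. Its levels were 4.09, 5.13, 13.1, 8.39 and 4.94 CPM with EV and 4.23, 6.24, 6.42 and 5.15 CPM with sgZrsr2. As for Socs3, EV mice 3 and 4 were the highest, while the other 7 libraries lay between 4.09 and 6.42 CPM. The log2 fold change was -0.37 (SE 0.35; edgeR adjusted p 0.795) and -0.04 without EV mouse 3.

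Socs2 (ENSMUSG00000020027; chromosome 10, 95385362 to 95417180, minus strand), the brake on growth hormone signalling and another STAT5 target, was at 6.91, 4.42, 8.64, 4.04 and 8.96 CPM with EV. It was at 7.21, 10.1, 9.41 and 4.59 CPM with sgZrsr2. Both groups held low and high libraries, and EV mice 2 and 4 and sgZrsr2 mouse 5 were the 3 lowest. The log2 fold change was 0.25 (SE 0.32; edgeR adjusted p 0.842). Its expected counts, 162 to 387 per library, were whole in 5 of 9 libraries, and RSEM gives a count that is not whole where it divides reads between genes.

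In the heat map of levels, EV mouse 3 stands out against its group in opposite directions. It held the highest value of 4 of the 8 members (Cish, Socs1, Socs3 and Socs7) and the lowest of 2 (Socs4 and Socs5). Over all genes tested, the same library was highest for 20.2% and lowest for 22.01%. Within EV, the coefficient of variation was 91.7% for Socs3, 76.6% for Cish and 52.2% for Socs1, against a median of 15.7% over the 9630 genes. It was 38.7% for Socs5, 34.8% for Socs2, 15.9% for Socs4 and 5.05% for Socs6.

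**Figure D2:**
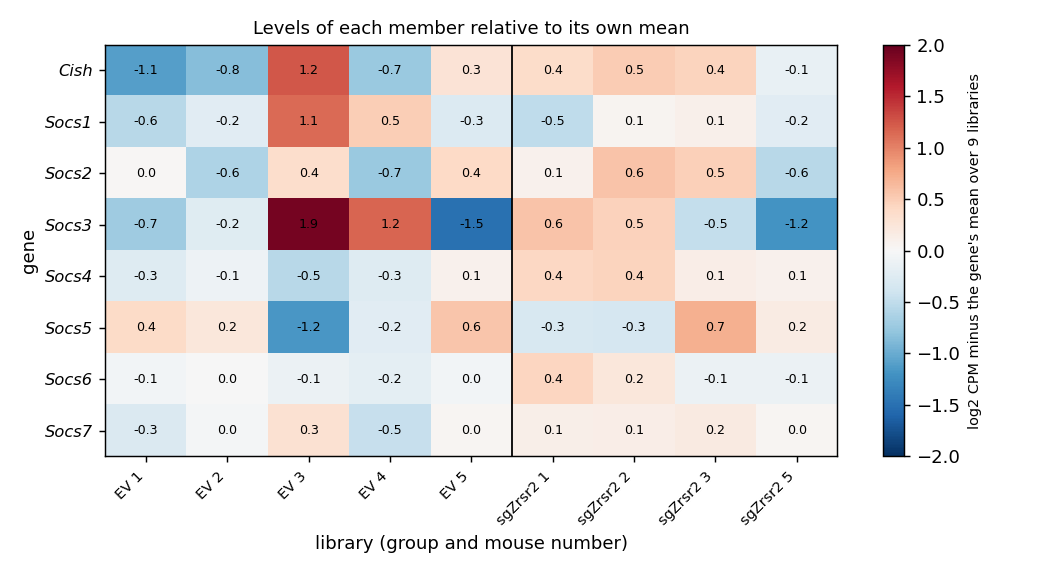
Log2 CPM of each member (rows) in each library (columns) minus the gene's mean over the 9 libraries, with the value in each cell; the vertical line divides EV from sgZrsr2. EV mouse 3 is high for Socs3, Cish and Socs1 and low for Socs5, and Socs6 varies least within EV.

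Levels of different genes can be set beside each other only per length. Per kilobase of exon (union of GENCODE M21 exons, which can differ from the transcripts in use), Socs3 was the most abundant member in all 9 libraries and Socs2 the least. The last place of Socs2 depended on its length of 9.53 kilobases, against 2.91 for Socs1. Before division by length, Socs2 averaged 6.59 CPM with EV and 7.82 CPM with sgZrsr2, and Socs1 7.14 and 5.51 CPM. With EV the means were 52.5 ± 48.2 CPM per kilobase for Socs3, 8.08 ± 1.68 for Socs7, 6.83 ± 1.083 for Socs4, 3.97 ± 1.54 for Socs5, 3.82 ± 0.193 for Socs6, 2.47 ± 1.89 for Cish, 2.45 ± 1.28 for Socs1 and 0.692 ± 0.241 for Socs2 (SD, n = 5). With sgZrsr2 they were 33.8 ± 17.1 for Socs3, 9.51 ± 1.23 for Socs4, 9.13 ± 0.360 for Socs7, 4.397 ± 0.824 for Socs6, 4.12 ± 1.51 for Socs5, 2.95 ± 0.554 for Cish, 1.89 ± 0.351 for Socs1 and 0.821 ± 0.260 for Socs2 (SD, n = 4). In this order the neighbours Socs4 and Socs7, and Socs5 and Socs6, differed by less than the larger of their SDs in both groups. With EV, the same held for Socs3 and Socs7, Socs6 and Cish, and Cish and Socs1. With sgZrsr2, it held for Socs5 and Cish. Socs3 made up 27.2% to 79.7% of the family's summed level per kilobase with EV and 33.4% to 60.1% with sgZrsr2, so its share overlapped between the groups.

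The settings of the fit moved the members unequally. The plot of fold changes by setting shows that Socs4, Socs6, Socs7, Socs2 and Cish kept a fold change above 0 in all 20 alternatives, while Socs1, Socs3 and Socs5 crossed 0 in at least 1. With 1 library left out, Cish ranged from 0.071 to 0.80, Socs2 from 0.096 to 0.43, Socs6 from 0.080 to 0.27 and Socs7 from 0.090 to 0.28.

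**Figure D3:**
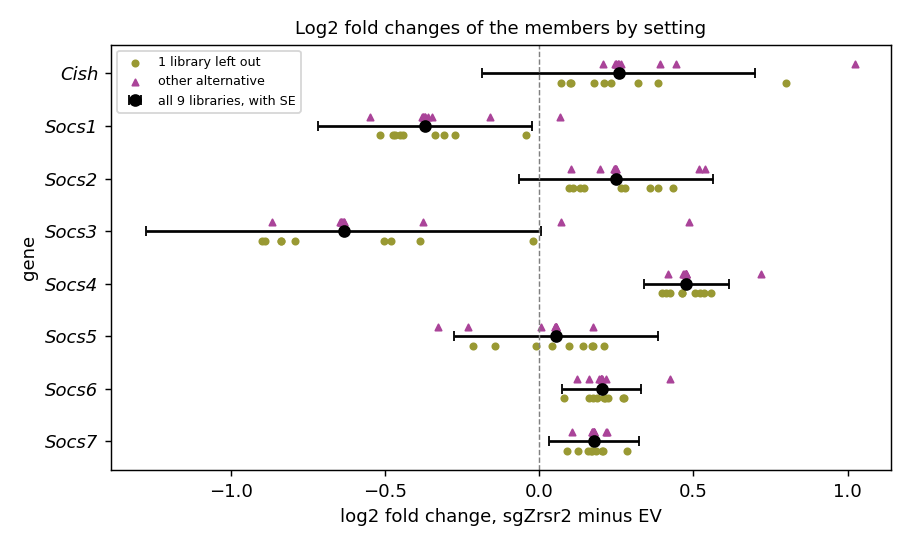
Log2 fold change (x axis, sgZrsr2 minus EV) of each member with its SE from all 9 libraries (black), from the fits that each left out 1 library (circles) and from the other alternatives (triangles). Socs4 stays between 0.40 and 0.72, while Socs3 ranges from -0.90 to 0.49.

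Genes whose levels followed the feedback members over the 9 libraries were found by Pearson's correlation of log2 CPM, over 9629 or 9630 genes that averaged 10 CPM or more. The 5 highest are named for each of Cish, Socs1, Socs2 and Socs3; as the highest of so many genes they carry no p-value, and all points share the same 9 libraries. For Socs3 they were Irf2bpl (r = 0.98, Spearman's rho 0.98), Ctsl, the lysosomal protease cathepsin L (0.98, rho 0.98), Tmem158 (0.97, rho 0.95), AC163629.2 (0.97, rho 0.97) and Il1r1, the interleukin-1 receptor (0.96, rho 0.92). Without EV mice 3 and 4, the libraries farthest from the median of Socs3, r was still 0.92 to 0.96 for these 5. Irf2bpl was at 30.8, 40.6, 118, 72.0 and 27.0 CPM with EV and 62.0, 58.3, 35.3 and 32.9 CPM with sgZrsr2, highest in EV mice 3 and 4 like Socs3.

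The genes most like Cish were Cxcr4, the receptor that holds stem cells in the marrow (r = 0.96, rho 0.93), Tgm2 (0.94, rho 0.85), the glucose transporter Slc2a3 (0.94, rho 0.93), Isca1 (0.93, rho 0.90) and Ptpn4 (0.93, rho 0.93). Without EV mice 1 and 2, the libraries farthest from the Cish median, r was 0.86 to 0.95. Those most like Socs1 were Dgat1 (0.95, rho 0.92), Gadd45a, a stress-induced gene (0.94, rho 0.72), Tusc1 (0.93, rho 0.88), Cebpb (0.92, rho 0.82) and Cited2 (0.91, rho 0.82), and here r fell to 0.62 to 0.78 without EV mice 3 and 4. Those most like Socs2 were Mecom, a transcription factor of long-term stem cells (0.91, rho 0.95), Ttc39b (0.90, rho 0.73), the immunoglobulin joining chain Igj (0.87, rho 0.83), Igkc (0.86, rho 0.85) and Pld3 (0.86, rho 0.82). Without EV mice 2 and 4, the libraries farthest from the Socs2 median, r was 0.65 to 0.82. Mecom was at 29.5, 24.8, 33.3, 22.2 and 34.0 CPM with EV and 40.0, 46.6, 45.98 and 25.3 CPM with sgZrsr2, with its 3 lowest libraries, EV mice 2 and 4 and sgZrsr2 mouse 5, those of Socs2. Igj and Igkc, transcripts of plasma cells, ran from 10.1 to 659 and from 13.5 to 805 CPM, lowest in EV mouse 4, where Socs2 was lowest too; their part in the level of Socs2 was not tested.

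**Figure D4:**
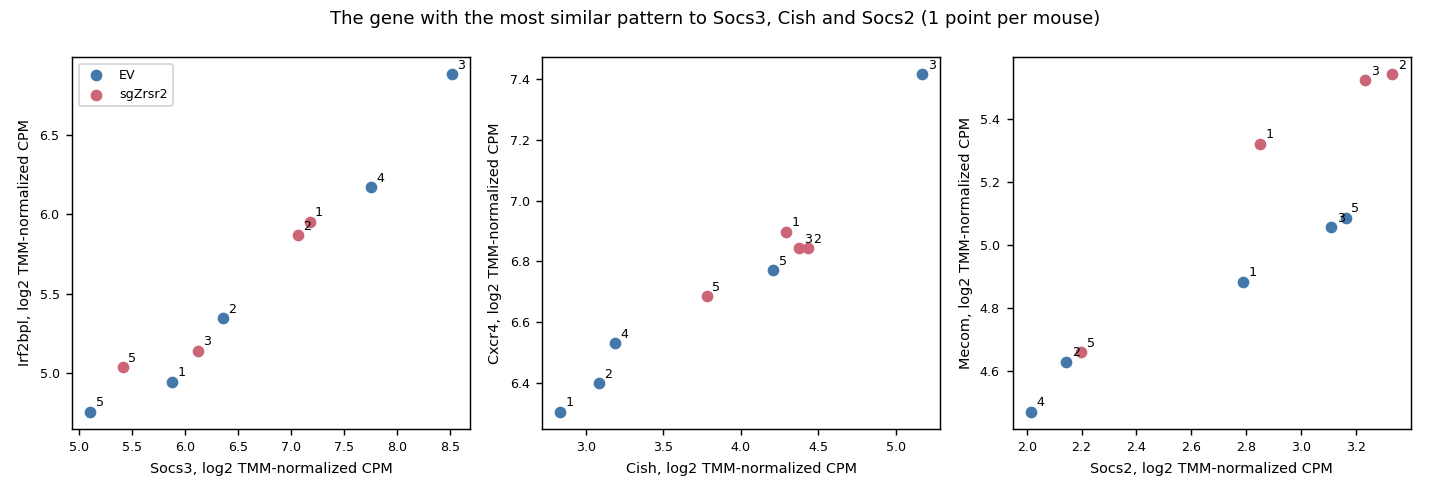
Log2 TMM-normalized CPM of Socs3, Cish and Socs2 (x axes) against the gene with the highest correlation to each, Irf2bpl, Cxcr4 and Mecom (y axes); each point is a mouse with its number, coloured by group. EV mouse 3 is highest for Socs3 with Irf2bpl (r = 0.98) and Cish with Cxcr4 (r = 0.96), and EV mouse 4 is lowest for Socs2 with Mecom (r = 0.91).

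Markers of other cells also differed between libraries. Car1, an early erythroid gene, was at 25.4, 39.3 and 35.5 CPM in EV mouse 5 and sgZrsr2 mice 3 and 5 and at most 0.422 CPM in the other 6, and the megakaryocyte genes Pf4 and Vwf were high in the same 3 libraries (Pf4 22.02, 27.9 and 37.4 CPM; Vwf 53.2, 91.1 and 85.3 CPM). Socs3 was at 34.6, 69.9 and 42.7 CPM there, among its 4 lowest values. Of the erythroid list, Klf1 was also high in these 3 libraries (8.81, 14.3 and 12.3 CPM), but not every gene was. Hbb-bt was at 8.06, 15.4 and 5.59 CPM there and highest in sgZrsr2 mice 1 and 2 (46.2 and 42.3 CPM). Tfrc was at 217, 270 and 180 CPM there and highest in EV mouse 3 (486 CPM). Nor did every megakaryocyte gene follow Pf4 and Vwf. Itga2b was at 199, 222 and 319 CPM in these 3 libraries, but at 263 CPM in EV mouse 4 and 235 CPM in sgZrsr2 mouse 1. All 12 listed erythroid and 11 megakaryocyte markers were found, with summed levels of 425 to 623 and 199 to 437 CPM with EV and 429 to 735 and 297 to 639 CPM with sgZrsr2, and the platelet gene Ppbp reached at most 1.73 CPM. The mature neutrophil list (10 genes) summed to 204 to 411 CPM with EV and 258 to 463 CPM with sgZrsr2, the monocyte, macrophage and dendritic list (9 genes) to 450 to 1255 and 526 to 1067 CPM, the lymphoid list (11 genes) to 162 to 397 and 129 to 315 CPM, and the mast cell and basophil list (7 genes) to 229 to 430 and 351 to 568 CPM. Single genes carried much of these sums, so a sum is not a level of mature cells. In EV mouse 1, Elane was at 209 CPM of the 238 CPM of the neutrophil list. Gata2 was at 206 of the 280 CPM of the mast cell and basophil list there, and Dntt at 281 of the 397 CPM of the lymphoid list. Other genes of the neutrophil list varied between libraries in unlike ways. Ngp was at 43.0 CPM in EV mouse 5 and 53.2 CPM in sgZrsr2 mouse 3, against at most 17.2 CPM in the others. Lcn2 was highest in EV mouse 4 (44.4 CPM). Ms4a1, Cd3e, Cd3g and Cd8a, of mature B and T cells, stayed under 1 CPM in all 9 libraries. The part of these cells in the members' levels was not tested.

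The machinery that SOCS proteins recruit was examined as a list of 7 genes, the elongins Elob and Eloc, the scaffolds Cul5 and Cul2, the ring proteins Rnf7 and Rbx1, and Ube2f. All 7 were tested, 6 had a fold change below 0 and 1 above, and 0 reached an unadjusted p under 0.05 (2.98% of all genes were lower at that threshold). The median log2 fold change was -0.17. Elob was at 49.7, 56.7, 68.1, 77.8 and 61.9 CPM with EV and 59.4, 67.2, 40.4 and 56.8 CPM with sgZrsr2. Eloc was at 36.6, 38.7, 52.5, 50.4 and 30.1 CPM with EV and 43.0, 42.3, 22.9 and 24.6 CPM with sgZrsr2. All 7 genes had their lowest value in sgZrsr2 mouse 3, a library that held the lowest value of 20.9% of all genes tested.

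Other proteins with a SOCS box were represented by 24 genes, of which 14 were tested, 9 with a fold change above 0 and 5 below (median 0.08). At an unadjusted p under 0.05 there were 2, both higher (3.87% of all genes tested were). Asb8 had groups that did not overlap (1.75% of all genes with sgZrsr2 higher), at 19.7, 22.7, 21.5, 24.7 and 25.1 CPM with EV and 39.9, 36.9, 25.3 and 27.1 CPM with sgZrsr2, which gave a fold change of 0.50 on the log2 scale (unadjusted p 0.00972, edgeR adjusted p 0.714). Like Socs4, it was highest in sgZrsr2 mice 1 and 2, with the other 2 sgZrsr2 libraries just above the EV range. Wsb2 was at 23.1 ± 1.60 and 29.3 ± 5.23 CPM (log2 fold change 0.34, edgeR adjusted p 0.714).

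Upstream of the family, 8 of the 11 JAK kinases and STAT factors had a fold change above 0 and 3 below, with a median of 0.16, and 0 reached an unadjusted p under 0.05. Jak2 was at 74.2, 77.8, 87.6, 54.7 and 72.0 CPM with EV and at 87.3, 88.2, 93.5 and 84.7 CPM with sgZrsr2 (log2 fold change 0.27, SE 0.13, edgeR adjusted p 0.714). Stat5a, the factor best known for inducing Cish and Socs2, was at 139 ± 18.4 and 159 ± 28.1 CPM in the EV and sgZrsr2 groups. Stat3, which induces Socs3, was at 218 ± 74.3 and 263 ± 29.4 CPM, with its highest value in EV mouse 3 (348 CPM). Both differences were smaller than the larger of the SDs. Of 34 cytokine receptor genes (one of them the ligand gene Thpo, not tested) 29 were tested, 20 above 0 and 9 below, with a median of 0.13; 1 reached an unadjusted p under 0.05 (6.85% of all genes did, 3.87% with sgZrsr2 higher). This was the interferon receptor chain Ifnar1 (96.2 ± 11.5 against 114 ± 7.22 CPM, edgeR adjusted p 0.714).

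Other inhibitors of the same pathway, such as phosphatases, PIAS proteins, Cbl ligases and the adaptor Sh2b3, were tested for 17 of 17 genes. Their fold changes were above 0 in 12 and below in 5, with a median of 0.13, and 3 reached an unadjusted p under 0.05, all higher (3.87% of all genes). These were Cblb, a ubiquitin ligase (39.0 ± 6.02 against 53.1 ± 8.26 CPM, log2 fold change 0.45), Pias1, a PIAS protein (39.0 ± 7.64 against 51.3 ± 3.60 CPM, 0.40) and Dok1, an adaptor (32.7 ± 2.80 against 41.7 ± 7.32 CPM, 0.35), each with an edgeR adjusted p of 0.714. Their groups overlapped. Sh2b3, whose loss is known to worsen JAK2-driven disease, was at 128 ± 20.6 and 138 ± 14.3 CPM (log2 fold change 0.11, edgeR adjusted p 0.837).

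Downstream, 19 other genes described as STAT5 targets were tested. They were divided, 10 above 0 and 9 below, with a median of 0.01, and 3 reached an unadjusted p under 0.05, all lower: the cyclin gene Ccnd1 (101 ± 19.9 against 76.6 ± 1.60 CPM), Tnfrsf13b (65.3 ± 10.5 against 49.6 ± 3.66 CPM) and Sytl2, which was low in every library (0.474 ± 0.129 against 0.143 ± 0.110 CPM), each with an edgeR adjusted p of 0.714. Of all genes tested, 2.98% were lower at that threshold. The groups of Tnfrsf13b and Sytl2 did not overlap, with sgZrsr2 lower, as in 1.32% of all genes tested. Pim1, a kinase gene induced by STAT5, was at 317, 381, 770, 494 and 282 CPM with EV and 484, 502, 481 and 360 CPM with sgZrsr2. It was highest in EV mouse 3, as were 10 of the 19 genes and 20.2% of all genes tested. Of 12 genes described as STAT3 targets, 10 were below 0 and 2 above (median -0.25), and 1 reached an unadjusted p under 0.05, the survival gene Birc5, whose groups did not overlap (73.3 ± 6.50 against 62.1 ± 5.23 CPM, edgeR adjusted p 0.714). The same shares of all genes apply, 2.98% lower at that threshold and 1.32% not overlapping with sgZrsr2 lower. EV mouse 3 was highest for 8 of these 12, against the same 20.2% of all genes tested. Bcl3, for example, was at 15.4, 25.4, 170 (EV mouse 3), 40.1 and 20.3 CPM with EV and at 58.4, 63.1, 28.7 and 28.6 CPM with sgZrsr2.

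No gene of these 8 lists, the family included, passed the adjusted threshold.

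**Figure D5:**
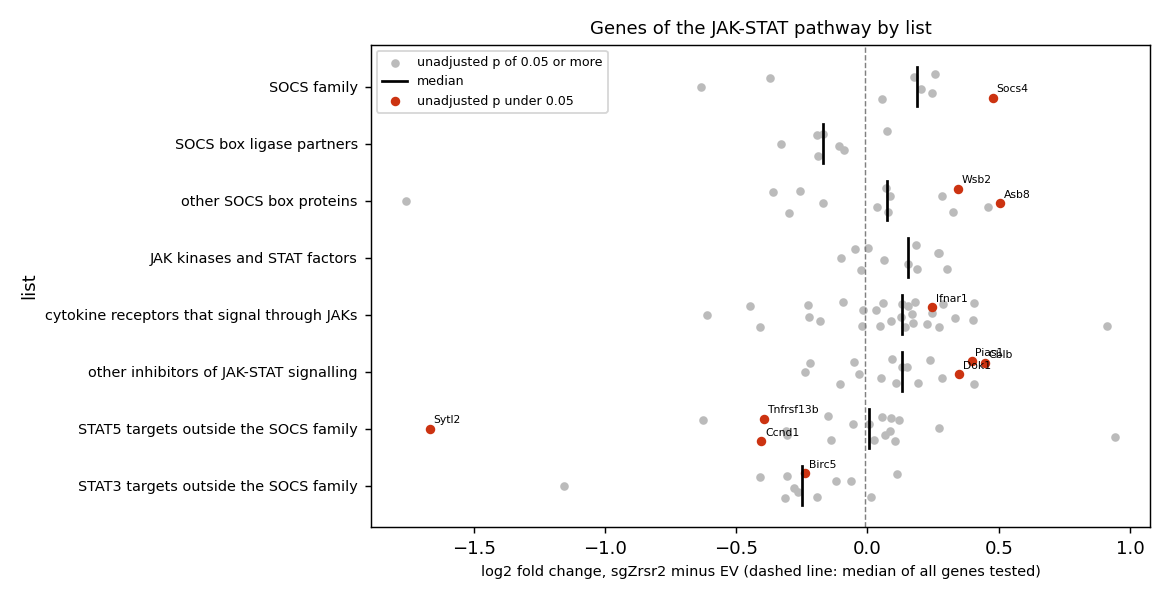
Log2 fold change (x axis, sgZrsr2 minus EV) of each tested gene of 8 lists (y axis); black bars are list medians, red points have an unadjusted p under 0.05 and carry their names, and the dashed line is the median of all genes tested (-0.01). The list medians lie between -0.25 (STAT3 targets) and 0.19 (SOCS family), and no point passes the adjusted threshold.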

How the data were processed

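Expected counts per Ensembl gene were deposited by the authors, 1 column per mouse and not normalized; the submitters' processing notes name cutadapt 1.11, RSEM 1.2.30 and the build GRCm38. The aligner, the annotation release and the strand setting are not given in the sources used here. Per the labels' protocols, libraries came from 5 ng of total RNA with polyA selection and PCR. Separate mice are replicates; gene sums do not show intron retention or splicing.

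Counts were rounded, filtered with filterByExpr (minimum count 10, total 15) and scaled with TMM factors. All 14944 genes were tested with edgeR 4.0.16 (quasi-likelihood, R 4.3.3), with Benjamini-Hochberg adjustment over all of them; the SE is the log2 fold change divided by the square root of F. For single levels, an exact permutation test (two-sided, 126 splits, scipy 1.17.1) was used. Alternatives used DESeq2 1.42.0, limma 3.58.1, other scalings and filters, a replicate block, counts that were not rounded, and fewer libraries. On simulated counts for this comparison (14944 genes, 200 changed, 3 simulations) the test recovered 5.47% of changes of 0.5, 43.3% of changes of 1 and 81.3% of changes of 2 on the log2 scale.

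The members, the lists (written by hand from general knowledge) and the alternatives were chosen with earlier results of these data known; averaging sgZrsr2 mice 1 and 2 was added after the files were examined. Named are the 8 members, Zrsr2 and Jak2, list genes at an unadjusted p under 0.05 (at most 5 a list), the 5 genes most like Cish, Socs1, Socs2 and Socs3, and markers whose levels move with a member; Elob, Eloc, Stat5a, Stat3, Sh2b3, Pim1 and Bcl3 were added after their values were seen. The markers Klf1, Hbb-bt, Tfrc, Elane, Gata2, Dntt, Itga2b, Ngp and Lcn2 were also added after their values were seen. Symbols of the lists were matched to the table directly or through the identifiers of current symbols. The mouse numbers did not pair the libraries throughout (see the closing part on processing). One list of target genes and 1 marker gene are not reported here.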

Additional observations from a re-analysis of the deposited data

Results flagged for a closer look

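For the genes named with a level, 112 sets of values (a gene in a group) were examined. Klf1, Hbb-bt, Tfrc, Elane, Gata2, Dntt, Itga2b, Ngp and Lcn2 were not among them. In 15 sets a library stood far from the rest of its group. Chance would flag about 1 in 20, or 5.6, of independent sets. Many of the genes were named for their values in these same libraries, so that share is not a yardstick here. No family member was among the 15. Zrsr2 was at 62.2 CPM in EV mouse 3, against 50.6 to 51.9 CPM in the other EV libraries. Slc2a3 and Isca1, chosen for their likeness to Cish, were at 180 and 106 CPM in EV mouse 3, against 81.0 to 106 and 58.6 to 68.6 CPM. Cebpb and Cited2, chosen for their likeness to Socs1, were at 193 and 306 CPM in EV mouse 3, against 71.3 to 104 and 119 to 157 CPM. Stat3 and Bcl3 were at 348 and 170 CPM in EV mouse 3, against 173 to 215 and 15.4 to 40.1 CPM. Car1, Pf4 and Vwf were at 25.4, 22.02 and 53.2 CPM in EV mouse 5, against at most 0.422, 3.43 and 9.21 CPM in the other EV mice. Tusc1 was at 16.7 CPM in sgZrsr2 mouse 1, while the 3 other mice of that group had 22.2 to 22.6 CPM. Pim1 was at 360 CPM in sgZrsr2 mouse 5, below the 481 to 502 CPM of the other 3. The lymphoid markers Cd3e and Cd3g were at 0.0873 and 0.0582 CPM in EV mouse 5, and Ms4a1 at 0.146 CPM in sgZrsr2 mouse 3, with 0 in the rest of the group.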

How the results depend on the processing

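In counts simulated at the depth and spread of these libraries, 5.47% of changes of 0.5 on the log2 scale were recovered; depth and spread were not varied separately. Genes past an adjusted p of 0.05 numbered 0 in 18 of 20 alternatives, 16 with the DESeq2 Wald test and 1 with sgZrsr2 mice 1 and 2 averaged; no family member was called in any. Genes at an unadjusted p under 0.05 numbered 1024, but 2551 with limma-voom and quality weights, 341 with the replicate block, 1692 without the 3 libraries with high Car1 and 609 to 1292 without 1 library. Family members higher at that threshold numbered 1, but 2 with limma-voom (Cish and Socs4), 2 without the high Car1 libraries (Socs4 and Socs6) and 1 to 3 without 1 library (Cish, Socs4 and Socs7 without EV mouse 3). Limma-voom with quality weights reversed Socs1 (0.067), Socs3 (0.49) and Socs5 (-0.33), the replicate block reversed Socs3 (0.071), and leaving out the high Car1 libraries reversed Socs5 (-0.23), as did leaving out 1 library (-0.21 to 0.21). The median of the other SOCS box list was -0.10 without the high Car1 libraries and -0.033 to 0.085 without 1 library, and that of the JAK and STAT list -0.0054 with limma-voom and -0.25 without the high Car1 libraries. Other list medians also crossed 0. With limma-voom these were the ligase partners (0.052), the STAT3 targets (0.049) and the STAT5 targets (-0.024). Without the high Car1 libraries they were the ligase partners (0.012), the receptors (-0.015) and the STAT5 targets (-0.13). The STAT5 median (0.01 with all libraries) was below 0 in 12 of 20 alternatives. The cause was not tested.

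Mouse numbers did not pair the libraries throughout. Deviations of same-numbered libraries from their group means correlated at -0.38, -0.20, -0.45 and 0.41 for numbers 1, 2, 3 and 5. Not every library correlated best with its own number. The deviations of sgZrsr2 mouse 5 correlated best with those of EV mouse 5, but those of EV mouse 5 correlated best with sgZrsr2 mouse 3. Whether the mice numbered 5 shared an origin or batch was not tested. With the replicate block Socs4 had a log2 fold change of 0.48 (unadjusted p 0.0221).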

Other observations

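The gene whose levels ran most opposite to Socs3 over the 9 libraries was Mki67, the proliferation marker Ki-67 (Pearson's r = -0.99, Spearman's rho -0.93, and r = -0.96 without EV mice 3 and 4). It was the lowest r of 9629 genes, was named after its values were seen and carries no p-value. Its levels were 772, 781, 495, 563 and 861 CPM with EV (mice 1 to 5) and 646, 642, 754 and 854 CPM with sgZrsr2 (mice 1, 2, 3 and 5). Its 2 lowest libraries, EV mice 3 and 4, were the 2 highest for Socs3, and its highest, EV mouse 5, was the lowest for Socs3. The groups overlapped in Mki67 (log2 fold change 0.06, unadjusted p 0.736 in edgeR's quasi-likelihood test).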
